A study of Mus musculus with 46 samples.

Results

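The ADAM genes measured here were all genes whose annotated symbol starts with Adam and a digit, which leaves out the secreted Adamts family. Of the 25697 probes on the array, 50 met that rule, and they stand for 29 of the 16593 genes. The arrays were made from RNA of single testes; the mice, adult Swiss males, drank water with 0.001, 0.01, 0.1, 1 or 10 µg/ml acrylamide, or water without it as the control, for 1, 6 or 12 months. Per the labels the mice were then 3 to 6, 11 to 12 or 16 to 17 months of age, so that age and length of exposure move together. The study asked what long exposure to low doses of acrylamide, a small reactive compound formed when starchy food is heated, does to gene expression in the testis. The 46 arrays form 18 groups. Groups at 1 and 6 months have 3 arrays each, but for 0.1 µg/ml at 1 month with 2. The 12-month groups are smaller, with 2 arrays for the control and for each of the doses 0.001 and 0.01 µg/ml, 3 for 0.1 µg/ml, and a single array for 1 and for 10 µg/ml. The labels do not say whether any 2 testes came from 1 mouse, so the p-values measure the spread between testes.

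ADAM proteins are membrane proteins built from a prodomain, a metalloprotease-like domain, a disintegrin-like domain and a membrane anchor. Some keep the zinc site of the protease and cut other proteins off the cell surface, which is called shedding, and others have lost it and act in adhesion. In the mouse testis many ADAM genes are active in spermatocytes and spermatids, and their products are carried to the sperm surface. ADAM3 there depends on chaperones and processing enzymes, and mouse sperm without it cannot pass into the oviduct or bind the egg coat well. ADAM proteins found on testicular germ cells or sperm are taken here in 2 groups, 7 genes of the sperm surface (Adam1b, Adam2, Adam3, Adam4, Adam5, Adam6a and Adam32) and 9 testis genes of the protease-like group (Adam20, Adam21, Adam24, Adam25, Adam26a, Adam29, Adam30, Adam34l and Adam39). The others were 8 widely expressed genes of the sheddase group, 3 of neural adhesion and 2 of the epididymis, the duct in which sperm mature after they leave the testis.

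Of the 29 genes, 11 lie on mouse chromosome 8 in the RefSeq table of assembly GRCm38.p6. Adam3, Adam5, Adam32 and Adam9 follow each other there with 0 protein-coding genes between them, and so do Adam24, Adam25, Adam20 and Adam39. Adam26a and Adam34l are direct neighbours on the same chromosome, and Adam29 is the last of the 11 in map order.

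Promoter sequences were available in RefSeq for 14 of the 29 genes, with 16 start sites in all. Those of Adam29, a testis gene whose probes changed with dose, and Adam22, a neural adhesion gene with 1 probe that rose, are printed. The 250 bases before the start site are given, 5′ to 3′, with each CpG in capitals. They are shown because the number of CpG in these windows separated the germ cell genes with a promoter from the others. GC content did not separate them fully, as both groups reached 50%. The Adam29 window is GRCm38.p6 chr8:55906965-55907214 on the minus strand and the Adam22 window is chr5:8368161-8368410 on the minus strand.
Adam29: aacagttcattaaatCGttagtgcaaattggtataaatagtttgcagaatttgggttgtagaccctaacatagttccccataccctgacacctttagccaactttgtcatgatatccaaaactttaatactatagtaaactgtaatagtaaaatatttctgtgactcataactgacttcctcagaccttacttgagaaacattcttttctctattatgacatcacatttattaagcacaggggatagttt
Adam22: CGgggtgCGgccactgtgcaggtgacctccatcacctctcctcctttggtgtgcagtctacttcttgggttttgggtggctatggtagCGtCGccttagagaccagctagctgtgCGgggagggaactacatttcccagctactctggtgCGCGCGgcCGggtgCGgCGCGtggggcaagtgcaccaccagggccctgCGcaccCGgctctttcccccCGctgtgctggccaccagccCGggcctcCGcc
The Adam29 window holds 1 CpG and has a GC content of 33.2%, and the Adam22 window holds 17 CpG and has a GC content of 66.8%. All 7 windows of the 7 sperm surface and testis protease-like genes in the table (Adam1b, Adam6a, Adam20, Adam21, Adam25, Adam29 and Adam34l) held at most 1 CpG, with a GC content of 33.2% to 50%. The 9 windows of the 7 other genes (Adam8, Adam10, Adam15, Adam17, Adam19, Adam22 and Adam23) held 4 to 29 CpG, with a GC content of 50% to 74%. Of all 32851 promoters in the table, 18.8% held at most 1 CpG in this window, and the median GC content was 52.4%. This is a description of the sequences, and no test was made of it.

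Probe values are the log2 values deposited by the authors, in which differences between dim probes are compressed. Of the 50 ADAM probes, 29 probes for 22 genes were above the dimmest 40% of the array, which ended at a mean of 7.76, and were tested. The Adam32 probe was at 12.99 to 13.69 over the 46 arrays, that of Adam3, also called cyritestin, at 11.55 to 13.53, and that of Adam5 at 12.52 to 13.00. The 3 probes of Adam4 had medians of 11.06, 9.82 and 9.02, and the 3 of Adam1b, the partner of Adam2 in fertilin, medians of 9.10, 9.06 and 8.21. Among the testis protease-like genes, Adam21 had a median of 10.32, Adam20 medians of 10.09 and 9.76, Adam24 9.91, Adam30 9.48, Adam39 9.43, Adam26a 8.77 and Adam34l 8.44. Adam29 had medians of 9.90 and 8.28 with its probes ILMN_1253199 and ILMN_2985913. The widely expressed genes had medians of 8.49 for Adam17, 8.05 for Adam15, 8.00 for Adam9, 7.79 for Adam19 and 7.77 for Adam8. The neural adhesion genes had medians of 8.06 and 7.81 for Adam22, 8.03 for Adam23 and 7.92 for Adam11. The level of 1 probe says nothing of its level against another probe.

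The other 21 probes were left out of the tests as dim. For 7 genes (Adam2, Adam7, Adam10, Adam12, Adam25, Adam28 and Adam33) no probe passed. Adam2 codes for fertilin beta, a well known protein of mouse sperm that is made in the testis, yet its only probe stayed at 7.57 to 7.81 on all 46 arrays, at the floor of the array. No statement on Adam2 is drawn from that probe. The 4 probes of Adam28 stayed between 7.59 and 7.83, Adam10 at 7.66 to 7.84, Adam12 at 7.64 to 7.79, Adam25 at 7.59 to 7.83 and Adam33 at 7.58 to 7.83. The dim probes of genes that also had a probe tested were 2 of Adam11, 2 of Adam23, 2 of Adam26a and 1 each of Adam8, Adam15, Adam22, Adam29 and Adam34l.

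Facts of the arrays bear on every comparison below. The third replicate of the 1-month group given 0.001 µg/ml stands apart: over all probes it correlated with the other arrays at 0.844 on average, and every other array did so at 0.974 or more. On it 11 of the 29 ADAM probes lay below all other arrays and 5 above them. Adam1b (probe ILMN_3131005) was at 12.00 there and at most at 9.46 elsewhere, and Adam3 was at 11.55 there and at least at 12.40 elsewhere. It is kept in the values below, where it widens the error, and counts without it are given beside the main ones where they differ. The labels number the arrays in order of time and dose, and arrays of this type hold 8 samples, but the labels give no slide. Sets of 8 consecutive numbers are therefore used as stand-ins. At 6 months set 3 held the control, the lowest dose and 1 array of 0.01 µg/ml, set 4 held the remaining arrays up to 1 µg/ml, and all arrays of 10 µg/ml came in set 5, so that dose and set cannot be told apart in the contrast of 10 µg/ml with control. Median bead intensity ran from 107.8 to 221.4 over the 45 arrays with usable intensities, and the number of arrays limits the precision. Among 1-month arrays it was 176.8 to 214.3 in set 1, which held the control and the lowest dose, and 130.4 to 166.0 in set 2. The 10 µg/ml array of that time in set 3 was at 194.7.

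After 6 months at 10 µg/ml, with 3 treated and 3 control arrays, Adam39, Adam24 and 1 of the 2 Adam29 probes fell, and Adam11 and 1 of the 2 Adam22 probes rose. The 3 probes that fell belong to testis protease-like genes, and the 2 that rose to neural adhesion genes. This split by role did not hold without the array that stands apart, where genes of other roles also passed in both directions, as given below. That is 5 of 29 probes past the threshold (adjusted p under 0.05 in limma, over all 15419 probes tested), 2 higher (9.00% of all probes) and 3 lower (8.37%). The share is 17.2%, against 17.4% of all probes tested, so the ADAM probes passed about as often as the rest of the array. Their median difference was -0.04, against 0.02 over all probes tested. Differences are log2 values of dose minus control with the standard error of the fit. Where groups of 3 arrays are said not to overlap, this is only a description, as the share over all probes is not given here.

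Adam39 is a testis-specific member of the protease-like group (probe ILMN_3161330). It was at 8.83, 9.09 and 8.73 at 10 µg/ml and at 9.52, 9.50 and 9.63 in controls. Every treated testis lay below every control, and the fall was -0.67 ± 0.13 (limma adjusted p = 0.00128). No single array decided this call: over the 46 fits that each left out 1 array the adjusted p was at most 0.0146. Adam24, also called testase 1, a sperm protease whose loss in mice lets extra sperm into the egg, was at 9.32, 9.48 and 9.42 at 10 µg/ml and at 10.49, 9.91 and 10.25 in controls. The groups did not overlap, and the fall was -0.81 ± 0.23 (limma adjusted p = 0.0170). The call was lost without control replicate 1 or without treated replicate 1 or 3, with an adjusted p of up to 0.102.

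Adam29, a testis gene of the same group, gave opposite readings with its 2 probes. Probe ILMN_2985913 was at 8.03, 8.09 and 8.04 at 10 µg/ml and at 8.46, 8.22 and 8.28 in controls, a fall of -0.27 ± 0.07 (limma adjusted p = 0.00864), which was lost without control replicate 1 (limma adjusted p = 0.0857). Probe ILMN_1253199 was at 10.00, 10.03 and 9.92 at 10 µg/ml and at 9.57, 9.58 and 9.86 in controls, a difference of 0.31 ± 0.12 (limma adjusted p = 0.0586). Neither pair of groups overlapped. Over 45 arrays the 2 probes had a correlation of -0.28, so the direction of Adam29 as a gene is not settled by these data.

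The probes that rose were dim, and their differences small. Adam11 (probe ILMN_1255996) was at 7.98, 8.06 and 8.03 at 10 µg/ml and at 7.89, 7.88 and 7.91 in controls, a rise of 0.13 ± 0.04 (limma adjusted p = 0.0253). Adam22, which in neurons binds the secreted protein LGI1, was at 8.05, 8.07 and 8.14 with probe ILMN_3134632 and at 7.90, 7.92 and 7.98 in controls, a rise of 0.16 ± 0.05 (limma adjusted p = 0.0334). Neither overlapped with its controls. Each of these calls was lost in 4 of the 46 fits that left out 1 array. The second Adam22 probe, ILMN_2759398, gave -0.03 ± 0.05, and the third was too dim to test. Adam23, the other neural adhesion gene, differed by 0.18 ± 0.10 (limma adjusted p = 0.238).

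Adam3, the sperm surface protein needed for entry into the oviduct, was at 12.83, 12.84 and 12.88 at 10 µg/ml and at 13.33, 13.38 and 13.48 in controls. The treated testes lay within 0.05 of each other and all below the controls, yet the difference of -0.55 ± 0.25 did not pass (limma adjusted p = 0.135). Once the array that stands apart is left out, the same difference had an error of 0.11 and passed (limma adjusted p = 0.000398), and over 5 alternatives run for this probe the adjusted p lay between 0.000398 and 0.144. Adam17, the sheddase that frees tumour necrosis factor, was at 8.60, 8.67 and 8.53 at 10 µg/ml and at 8.38, 8.41 and 8.28 in controls (0.25 ± 0.10, limma adjusted p = 0.0762). Adam9, a widely expressed sheddase, was at 7.86, 7.91 and 7.89 at 10 µg/ml and at 8.18, 8.07 and 8.01 in controls (-0.20 ± 0.08, limma adjusted p = 0.0782). In all 3 genes the groups did not overlap. Nor did they for Adam32, a sperm surface gene, which differed by 0.23 ± 0.11 (limma adjusted p = 0.138). The share of all probes whose groups did not overlap is not given here, so a lack of overlap is only a description. Adam5 differed by 0.08 ± 0.09, and the 3 probes of Adam4 by 0.01, 0.17 and -0.23.

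Without the array that stands apart, 12 of the 29 ADAM probes passed in this contrast, 5 higher and 7 lower, against 32.9% of all probes tested. The 7 added were Adam3, Adam9, Adam26a and Adam20 (probe ILMN_2967843), all lower, and Adam15, Adam17 and Adam29 (probe ILMN_1253199), all higher. With set as a random block as well, 5 passed (Adam24, Adam39, Adam3 and Adam29 with probe ILMN_2985913, all lower, and Adam17, higher), against 14.4% of all probes. Without replicate 1 of the controls at 6 months 1 ADAM probe passed, without control replicate 2 or treated replicate 2 there were 3, and without treated replicate 3 there were 2. Control replicate 1 is also an array with high Adam7, given further on.

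**Figure D1:**
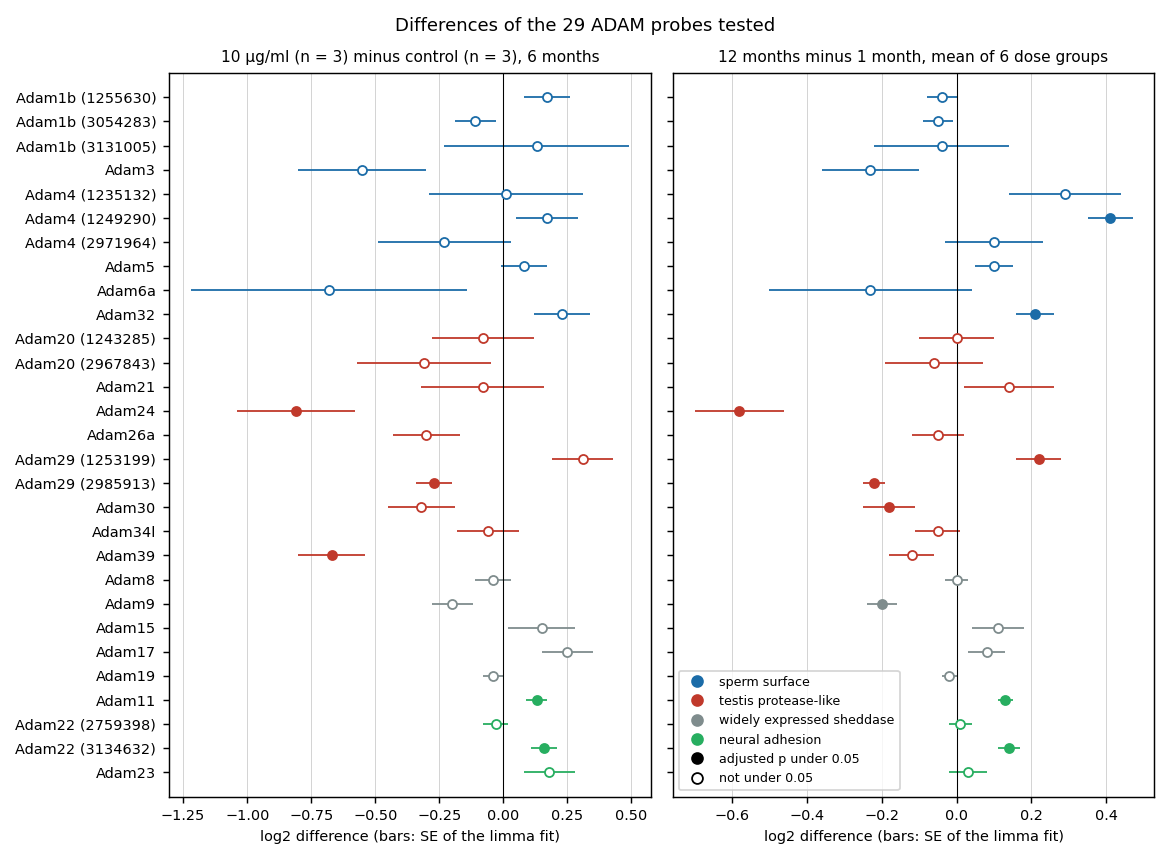
Log2 difference of each of the 29 ADAM probes tested, with bars for the standard error from limma, coloured by role and filled where the adjusted p was under 0.05. The left panel gives 10 µg/ml minus control at 6 months, where Adam24 and Adam39 lie farthest left among filled points; the right panel gives 12 months minus 1 month, where Adam4 lies farthest right and Adam24 farthest left.

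Over all 6 dose groups at 6 months, the slope per step of dose rank (log2, ranks 0 to 5 with the control as 0) passed for 10 of 29 ADAM probes, 4 higher (13.8% of all probes) and 6 lower (12.7%), or 34.5% against 26.5% of all probes tested. Adam39 had the smallest p, with a slope of -0.11 ± 0.02 (limma adjusted p = 0.000480). Besides the control and 10 µg/ml values above, it was at 9.48, 9.59 and 9.52 at 0.001 µg/ml, 9.44, 9.27 and 9.29 at 0.01, 9.41, 9.10 and 9.31 at 0.1, and 9.43, 9.35 and 9.29 at 1 µg/ml. The groups from 0.01 to 1 µg/ml lay in between and overlapped each other, and 10 µg/ml lay lowest. Adam24 had a slope of -0.14 ± 0.04 (limma adjusted p = 0.0106). Its 3 arrays at 0.01 µg/ml were at 10.36, 9.82 and 9.45, its 0.1 µg/ml arrays at 9.68, 9.54 and 9.97 and its 1 µg/ml arrays at 9.75, 10.06 and 9.84.

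Adam30, a testis gene of the protease-like group, had a slope of -0.08 ± 0.02 (limma adjusted p = 0.00761). It was at 9.51, 9.38 and 9.62 in controls, 9.75, 9.71 and 9.82 at 0.001 µg/ml, 9.68, 9.37 and 9.37 at 0.01, 9.22, 9.53 and 9.27 at 0.1, 9.25, 9.52 and 9.43 at 1 and 9.12, 9.21 and 9.23 at 10 µg/ml. The lowest dose gave the highest values and those at the top dose were all below the controls. Adam32 rose with dose, with a slope of 0.06 ± 0.02 (limma adjusted p = 0.0225). It was at 13.30, 13.23 and 13.26 in controls, 13.33, 13.36 and 13.19 at 0.001 µg/ml, 13.34, 13.50 and 13.62 at 0.01, 13.64, 13.62 and 13.56 at 0.1, 13.62, 13.50 and 13.43 at 1 and 13.42, 13.48 and 13.57 at 10 µg/ml. Its values stepped up within the 0.01 µg/ml group and were no higher at 10 µg/ml than at 0.1. The others that passed were Adam11 (0.03), Adam22 (probe ILMN_3134632, 0.04) and Adam29 (probe ILMN_1253199, 0.07) with higher values, and Adam9 (-0.05), Adam26a (-0.06) and Adam29 (probe ILMN_2985913, -0.03) with lower ones. Adam3 had a slope of -0.11 ± 0.04 and did not pass (limma adjusted p = 0.0639).

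Dose overlaps with set in these slopes. The 3 arrays at 0.01 µg/ml were split, 1 in set 3 and 2 in set 4, and between them, at 1 dose, Adam24 stepped by -0.72, Adam3 by -0.49, Adam30 by -0.31, Adam9 by -0.28, Adam32 by 0.22 and the Adam29 probes by 0.29 and -0.18, each in the direction of its slope (set 4 minus set 3). Adam39 stepped by -0.16, Adam22 by 0.12 and Adam11 by 0.06, also with their slopes. Adam26a stepped by 0.11, against its negative slope. Within the 8 arrays of set 4, which span 0.01 to 1 µg/ml, no ADAM probe had a slope with an unadjusted p under 0.05, and of all probes tested 0 passed after adjustment and 1028 had an unadjusted p under 0.05. Adam24 there had a slope of 0.13 ± 0.07. A batch between sets and a response to dose cannot be told apart with these arrays. Without the array that stands apart 13 of the 29 ADAM slopes passed, 5 higher and 8 lower, against 41.1% of all probes. With set as a random block as well, 7 passed, against 16.4%. Without control replicate 1 at 6 months, 6 passed.

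**Figure D2:**
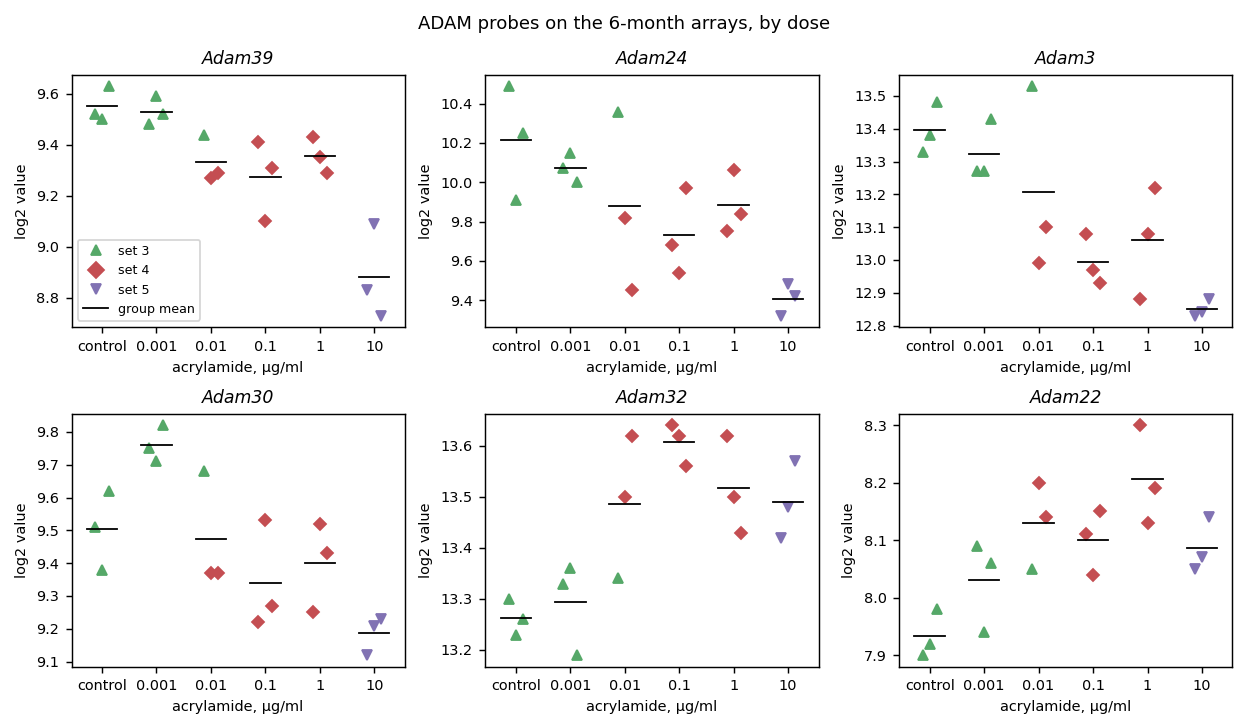
Log2 values of 6 ADAM probes on the 18 arrays at 6 months, with dose in µg/ml from control on the left to 10 on the right; each point is 1 array, its shape and colour give the set, and bars are group means. Adam39 at 10 µg/ml lies below all other arrays, while Adam24, Adam3 and Adam32 step between set 3 and set 4 within the 0.01 µg/ml group.

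The lower doses gave few calls. Over the 12 contrasts of 0.001, 0.01, 0.1 and 1 µg/ml with their controls, 3 ADAM calls were made, all at 6 months and all higher. At 0.1 µg/ml, 2 of 29 passed, against 6.03% of all probes (3.15% higher, 2.87% lower): Adam22 (probe ILMN_3134632), at 8.11, 8.04 and 8.15 (0.17 ± 0.05, limma adjusted p = 0.0478), and Adam32 (0.34 ± 0.11, limma adjusted p = 0.0494). At 1 µg/ml, 1 passed, against 0.311% of all probes (0.149% higher, 0.162% lower), which was Adam22 again, at 8.30, 8.13 and 8.19 (0.28 ± 0.05, limma adjusted p = 0.0229). The Adam22 probe was thus above its controls in every array of 0.1, 1 and 10 µg/ml, and these contrasts share the same 3 control arrays. The controls lay in set 3 and these dosed arrays in sets 4 and 5, so dose and set cannot be told apart. Between sets 3 and 4, at 0.01 µg/ml alone, this probe stepped by 0.12 and Adam32 by 0.22. Each of the 3 calls was lost in 5 to 35 of the fits that left out 1 array, among them each of the fits without 1 of the 3 controls at 6 months, which left 0 calls at these doses. Without replicates 1, 2 or 3 of 0.001 µg/ml at 1 month there were 14, 15 and 10. The 10, without the array that stands apart, were 6 at 0.1 µg/ml and 2 at 1 µg/ml after 6 months, and 2 at 1 µg/ml after 1 month. Of all probes, 18.5%, 8.83% and 3.76% passed there. With set as a random block as well, 0 ADAM probes passed in these 3 contrasts, against 0%, 0% and 0.0195% of all probes. No share is given here for the 14 and 15, so these counts say nothing of ADAM probes in particular. With all arrays kept, 0 ADAM probes passed in limma at these doses at 1 and 12 months, with 0 to 8 of 29 at an unadjusted p under 0.05. Of all probes, 0.00649% passed at 0.1 µg/ml and 0.298% at 1 µg/ml after 1 month, and 0.0130%, 0.0389% and 0.0324% at 0.01, 0.1 and 1 µg/ml after 12 months.

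After 1 month, 0 of 29 ADAM probes passed at 10 µg/ml (3 arrays) against control (3 arrays), with 4 at an unadjusted p under 0.05, and 0.0713% of all probes passed in limma. The 3 with the smallest p were Adam26a, Adam30 and Adam29. Adam26a, also called testase 3, was at 8.97, 9.11 and 9.18 at 10 µg/ml and at 8.67, 8.46 and 8.68 in controls (0.48 ± 0.13, limma adjusted p = 0.221). Adam30 was at 9.57, 9.28 and 9.40 at 10 µg/ml and at 9.83, 9.70 and 9.96 in controls (-0.41 ± 0.13, limma adjusted p = 0.317). Adam29 with probe ILMN_2985913 was at 8.51, 8.61 and 8.36 at 10 µg/ml and at 8.29, 8.26 and 8.29 in controls (0.21 ± 0.07, limma adjusted p = 0.320). In these 3, named for their small p, the groups did not overlap, which is a description, and none passed with all arrays kept. Without the array that stands apart 1 ADAM probe passed, against 0.921% of all probes.

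The dose slope at 1 month passed for 4 of 29 ADAM probes, 2 higher and 2 lower, against 5.58% of all probes (2.79% higher, 2.80% lower). Adam26a rose with dose (0.11 ± 0.02, limma adjusted p = 0.00625) and was at 8.81, 8.68 and 8.88 at 0.01 µg/ml, 9.15 and 8.75 at 0.1 and 8.90, 8.82 and 8.77 at 1 µg/ml. Adam30 fell (-0.10 ± 0.02, limma adjusted p = 0.00818) and was at 10.05, 9.78 and 9.65 at 0.01 µg/ml, 9.42 and 9.36 at 0.1 and 9.45, 9.04 and 9.54 at 1 µg/ml. Adam1b fell with 1 of its 3 probes (ILMN_3054283, -0.05 ± 0.01, limma adjusted p = 0.0296), which was at 8.20, 8.09 and 8.01 at 10 µg/ml and at 8.35, 8.29 and 8.28 in controls. Adam32 rose (0.06 ± 0.02, limma adjusted p = 0.0421), though at 10 µg/ml it read 13.38, 13.41 and 13.24, below the 13.57, 13.59 and 13.51 of 1 µg/ml. With set as a fixed term 0 of the 29 slopes passed and that of Adam32 turned to -0.04, and 0 of all probes passed in limma, with 2 of the 29 at an unadjusted p under 0.05. Dose and set overlap at this time too. Without the array that stands apart 6 ADAM slopes passed, 3 higher and 3 lower, against 7.73% of all probes. Without replicate 1 or 2 of 0.001 µg/ml 11 and 10 passed. No share of all probes is given here for these counts, so they say nothing of ADAM probes in particular. Only 2 passed without any 1 of the 3 controls, of replicates 2 and 3 of 1 µg/ml or of replicate 2 of 10 µg/ml.

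The effect of 10 µg/ml differed between 6 months and 1 month for 5 of 29 ADAM probes, all lower at 6 months, against 6.38% of all probes in limma (2.65% higher, 3.73% lower; interaction term, 3 arrays in each of the 4 groups). Adam24 was at 10.45 ± 0.18 at 10 µg/ml and 10.04 ± 0.11 in controls at 1 month (SD, n = 3 each), the opposite order to 6 months, which gave -1.22 ± 0.33 (limma adjusted p = 0.0252). Adam26a gave -0.78 ± 0.19 (limma adjusted p = 0.0145) and Adam39 -0.76 ± 0.18 (limma adjusted p = 0.0135). Adam29 gave -0.48 ± 0.10 with probe ILMN_2985913 (limma adjusted p = 0.00645). Adam9 gave -0.36 ± 0.11 (limma adjusted p = 0.0498) and lost the call in 30 of 46 fits that left out 1 array. Of the 10 testis protease-like probes, 4 passed here, and of the 10 sperm surface probes, 0. Without the array that stands apart 9 passed, 3 higher and 6 lower, against 18.4% of all probes. Of the sperm surface, Adam3 and Adam1b (probe ILMN_3131005) each passed in 1 of 5 alternatives run (limma adjusted p = 0.0375 and 0.0477). Without control replicate 1 at 6 months or control replicate 2 at 1 month 2 passed. Without replicate 2 of 10 µg/ml at 1 month, or replicate 1 or 3 of 10 µg/ml at 6 months, 3 passed.

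At 12 months, with 1 array at 10 µg/ml and 2 of the control, 0 of 29 ADAM probes passed, 2 had an unadjusted p under 0.05, and 0.0195% of all probes passed in limma. Adam30 was at 9.83 at 10 µg/ml and at 8.91 and 9.50 in controls (0.62 ± 0.20, limma adjusted p = 0.245). Adam1b (probe ILMN_3054283) was at 8.23 at 10 µg/ml and at 7.87 and 8.02 in controls, and Adam11 at 7.92 at 10 µg/ml and at 7.99 and 8.08 in controls. The fit takes the spread of the lone array from the other groups. Adam24 and Adam39, which fell at 6 months, were at 9.77 and 9.53 on that array, above both of their 12-month controls (9.42 and 9.58 for Adam24, and 9.47 and 9.34 for Adam39). The dose slope passed for 0 of 29, with 1 at an unadjusted p under 0.05, and for 0.0130% of all probes. Its smallest p belonged to Adam30 (0.09 ± 0.03, limma adjusted p = 0.385), Adam11 (-0.01) and Adam3 (0.08).

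Between 12 months and 1 month, averaged over the 6 dose groups, 9 of 29 ADAM probes passed, 5 higher and 4 lower, or 31.0% against 41.2% of all probes tested (22.9% higher, 18.3% lower). Adam11, Adam32 and 1 probe each of Adam4 and Adam22 were higher at 12 months. Adam24, Adam9 and Adam30 were lower, and Adam29 went both ways with its 2 probes. Age, exposure and array set all differ between these times.

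Adam4, a testis gene whose product joins complexes with ADAM2 and ADAM3 on mouse sperm, had the smallest p with probe ILMN_1249290. It ran from 8.61 to 9.31 with a median of 9.00 over the 17 arrays at 1 month, from 8.72 to 9.21 with a median of 8.99 over the 18 at 6 months and from 9.08 to 9.54 with a median of 9.35 over the 11 at 12 months. It was higher at 12 months than at 1 month by 0.41 ± 0.06 (limma adjusted p = 3.66e-06) and than at 6 months by 0.38 ± 0.06 (limma adjusted p = 0.000374). Control arrays alone showed it too, with 9.40 and 9.32 at 12 months and 9.05, 8.66 and 9.00 at 1 month (0.46 ± 0.13, limma adjusted p = 0.0124). The other Adam4 probes did not pass, with 0.29 ± 0.15 for ILMN_1235132 and 0.10 ± 0.13 for ILMN_2971964.

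Adam24 ran from 8.69 to 10.62 with a median of 10.13 at 1 month, from 9.32 to 10.49 with a median of 9.88 at 6 months, and from 9.31 to 9.83 with a median of 9.51 at 12 months. It was lower at 12 months than at 1 month by -0.58 ± 0.12 (limma adjusted p = 0.000216), and apart from the array that stands apart every 1-month array lay above every 12-month one. Adam9 had medians of 8.06, 7.98 and 7.86 at 1, 6 and 12 months, with ranges of 7.75 to 8.24, 7.84 to 8.19 and 7.79 to 7.95, and a difference of -0.20 ± 0.04 between 12 months and 1 month (limma adjusted p = 0.000245). Adam29 with probe ILMN_2985913 had medians of 8.40, 8.25 and 8.18, with ranges of 8.26 to 8.61, 8.03 to 8.46 and 8.09 to 8.26, in the same order of times (-0.22 ± 0.03, limma adjusted p = 1.06e-05). Its probe ILMN_1253199 had medians of 9.78, 9.89 and 9.98, with ranges of 9.28 to 10.02, 9.57 to 10.07 and 9.83 to 10.18 (0.22 ± 0.06, limma adjusted p = 0.00326). As with dose, the 2 probes of this gene moved apart with time. Adam30 fell by 0.18 ± 0.07 (limma adjusted p = 0.0309). This call was lost in 5 of the fits that left out 1 array (limma adjusted p up to 0.0999): those without replicate 1 of 0.01 or of 0.1 µg/ml at 1 month, and those without replicate 1 of the controls, of 0.001 or of 1 µg/ml at 12 months. It was also lost in 1 of 5 alternatives, without the array that stands apart and with set as a random block (limma adjusted p = 0.149).

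Of the genes that rose, Adam32 had medians of 13.38, 13.45 and 13.57 at 1, 6 and 12 months, with ranges of 12.99 to 13.59, 13.19 to 13.64 and 13.41 to 13.69 (0.21 ± 0.05, limma adjusted p = 0.00191). With cyclic loess between arrays, 1 of 5 alternatives, its difference was 0.12 and did not pass (limma adjusted p = 0.288). The SD over arrays was 0.21, 0.15 and 0.10 at these times, and this was not tested. Adam11 had medians of 7.87, 7.93 and 8.00, with ranges of 7.80 to 7.99, 7.83 to 8.06 and 7.92 to 8.11 (0.13 ± 0.02, limma adjusted p = 7.89e-06). Adam22 with probe ILMN_3134632 had medians of 7.99, 8.08 and 8.15, with ranges of 7.90 to 8.10, 7.90 to 8.30 and 8.01 to 8.21 (0.14 ± 0.03, limma adjusted p = 0.000130). In all 3 the ranges at 12 months and 1 month overlapped.

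Adam3 was at 12.40 to 13.09 at 12 months and 11.55 to 13.50 at 1 month, and its difference of -0.23 ± 0.13 did not pass. In control arrays alone it was at 13.29, 13.28 and 13.41 at 1 month, at 13.33, 13.38 and 13.48 at 6 months and at 12.76 and 12.40 at 12 months. The oldest controls lay below all younger ones, and the difference between 12 and 6 months passed (-0.82 ± 0.28, limma adjusted p = 0.0432). Without the array that stands apart the difference over all doses between 12 months and 1 month passed (-0.34 ± 0.05, limma adjusted p = 6.37e-06), with adjusted p between 6.37e-06 and 0.155 over the 5 alternatives run. In that fit 13 ADAM probes passed, 8 higher and 5 lower, against 55.2% of all probes. Control arrays alone (2 at 12 months, 3 at 1 month) gave 5 of 29 with all arrays kept, against 19.9% of all probes (10.9% higher, 9.09% lower): Adam30 and Adam1b (probe ILMN_3054283) lower, and Adam4, Adam29 (probe ILMN_1253199) and Adam32 higher. Between 12 and 6 months controls alone also gave 5, against 17.4% (9.51% higher, 7.91% lower): Adam3 and Adam1b (probe ILMN_3054283) lower, and Adam4, Adam11 and Adam29 (probe ILMN_1253199) higher. In the fit without the array that stands apart, these 2 control contrasts gave 9 and 11, against 33.8% and 31.6% of all probes.

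Between 6 months and 1 month 3 of 29 passed, or 10.3% against 17.3% of all probes (9.38% higher, 7.91% lower). Adam29 with probe ILMN_2985913 fell by 0.18 ± 0.03 (limma adjusted p = 0.000293), Adam22 with probe ILMN_3134632 rose by 0.07 ± 0.02 (limma adjusted p = 0.0167) and Adam11 rose by 0.06 ± 0.02 (limma adjusted p = 0.0196). None of these 3 kept its direction in the control arrays, where the differences were 0.04, -0.06 and -0.03, and where 0 of 29 ADAM probes and 0 of all probes passed in limma (1 of 29 and 359 of all at an unadjusted p under 0.05). The next 5 by p did not pass: Adam39 (-0.14), Adam30 (-0.14), Adam9 (-0.08), Adam24 (-0.24) and Adam32 (0.10). Adam39 ran from 8.73 to 9.63 with a median of 9.38 at 6 months and from 9.01 to 9.90 with a median of 9.46 at 1 month, and Adam30 from 9.12 to 9.82 with a median of 9.40 at 6 months and from 9.04 to 10.05 with a median of 9.64 at 1 month. Between 12 and 6 months, Adam4 (probe ILMN_1249290) and Adam11 (0.08 ± 0.02, limma adjusted p = 0.0145) rose, which is 2 of 29 against 9.49% of all probes (5.25% higher, 4.24% lower). Adam24 had the next smallest p (-0.35 ± 0.11, limma adjusted p = 0.0531). When the outlying array was dropped, 10 passed between 6 months and 1 month, against 32.0% of all probes. Between 12 and 6 months 6 then passed, against 24.2%. Without replicate 3 of 0.01 µg/ml or replicate 2 of 1 µg/ml at 1 month 5 passed between 6 months and 1 month, and without replicate 1 of 0.01 µg/ml at 6 months 7 did. Without replicate 3 of 0.01 µg/ml at 6 months or the 10 µg/ml array at 12 months 4 passed between 12 and 6 months.

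**Figure D3:**
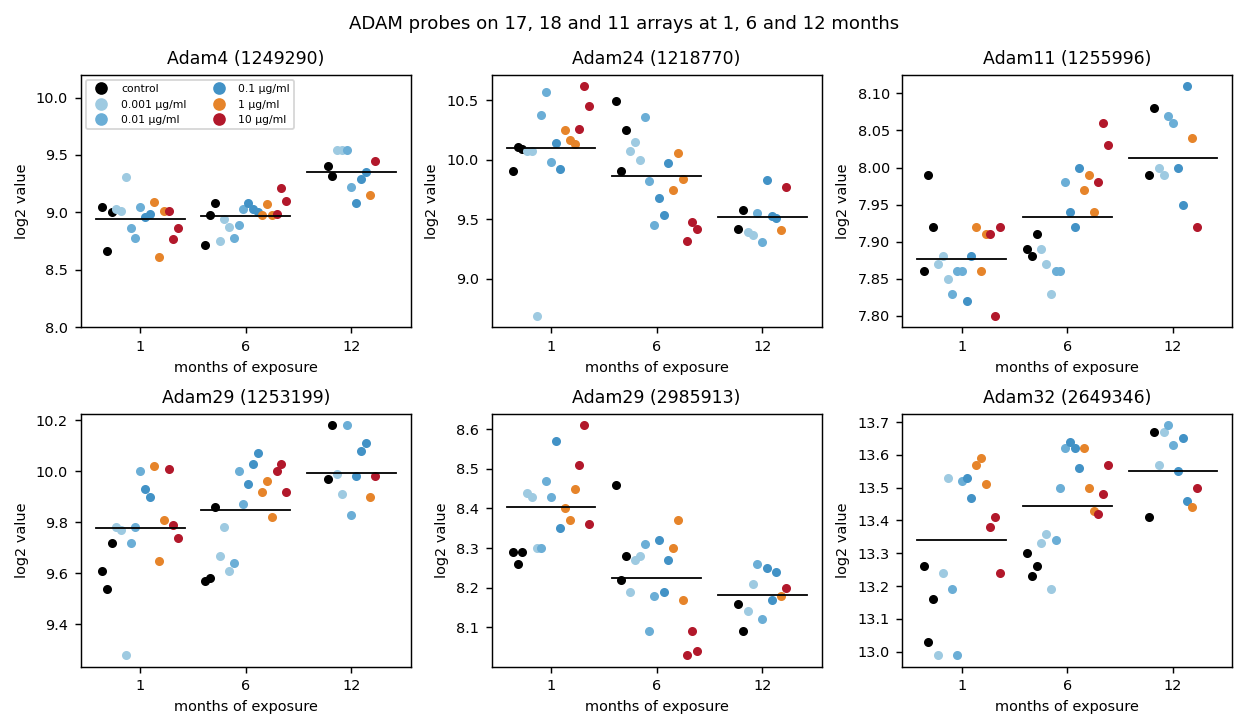
Log2 values of 6 ADAM probes on the 17 arrays at 1 month, 18 at 6 months and 11 at 12 months; each point is 1 array, coloured by dose, and bars are the means of the 6 dose groups. Adam4 (ILMN_1249290) stood higher at 12 months, Adam24 lower, and the 2 probes of Adam29 moved in opposite directions.

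Genes known to act with ADAM proteins were followed in the same contrasts, with no test made of a list as a whole. Of 16 genes listed for the maturation of ADAM3 and for sperm migration into the oviduct, 11 were tested. Dose and set cannot be told apart in the contrast of the top dose with control at 6 months. In that contrast 6 of the 11 fell and 1 rose, with a median difference of -0.83. Those with the smallest p were Prss37, a protease-like protein without catalytic activity (-1.06 ± 0.27), Galntl5 (-1.03 ± 0.26), Ly6k, a membrane-anchored sperm protein (-1.21 ± 0.33), and Cmtm2b (-0.90 ± 0.25). The gene that rose was Tpst2, an enzyme that adds sulphate to tyrosines (0.36 ± 0.11). Between 12 months and 1 month 7 of the 11 fell, among them Clgn, a chaperone of the endoplasmic reticulum needed for ADAM heterodimers (-0.76 ± 0.09), Galntl5 (-0.73 ± 0.13) and Ly6k (-0.90 ± 0.17), and Tpst2 rose again (0.27 ± 0.05). These counts stand against 17.4% and 41.2% of all probes tested, and the list's median at 12 months minus 1 month was -0.55.

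Genes of sperm-egg fusion and adhesion gave 3 lower of 6 tested at 10 µg/ml and 6 months, namely Hyal5 (-0.90 ± 0.25), Llcfc1 (-0.48 ± 0.15) and Zp3r (-0.66 ± 0.21). Of 3 proprotein convertases, which cut off the prodomain of ADAM proteins, Furin (0.48 ± 0.11) and Pcsk7 (0.38 ± 0.11) rose, and Pcsk4, the one of germ cells, did not pass (-0.14 ± 0.12). Partners and inhibitors of the sheddases gave 4 higher of 12: Tspan17 (0.82 ± 0.12) and Tspan33 (0.40 ± 0.10), which are tetraspanins that bind ADAM10, Rhbdf1 (0.27 ± 0.08), which carries ADAM17 to the cell surface, and Timp2 (0.77 ± 0.23), an inhibitor of metalloproteases. Of 11 sheddase substrates tested 0 passed in limma, with App (-0.24 ± 0.09, limma adjusted p = 0.0623) and Egfr (0.13 ± 0.06, limma adjusted p = 0.107) first by p. Of 10 integrins and tetraspanins, Cd151 rose (0.73 ± 0.13) and Itgb5 fell (-0.62 ± 0.15). After 1 month at 10 µg/ml no gene of these lists passed.

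Markers of several testis cell types changed at 10 µg/ml after 6 months, a contrast in which dose and set cannot be told apart. Their counts stand against the shares of all probes, higher and lower, given above for this contrast. Of 9 elongating spermatid markers tested, 6 fell and 1 rose at 10 µg/ml and 6 months, with a median of -0.66, and their mean was 12.59 to 12.65 in treated testes and 13.12 to 13.18 in controls. Of 8 round spermatid markers 4 fell and 0 rose, with a mean over 9 markers of 10.64 to 10.70 in treated testes and 11.02 to 11.05 in controls. Of 10 Sertoli cell markers 3 rose and 0 fell, with a mean over 11 markers of 9.53 to 9.56 in treated testes and 9.22 to 9.31 in controls. Of 8 spermatocyte markers 2 rose (Ldhc by 0.46 and Ybx2 by 0.32) and 2 fell (Sycp1 by 0.51 and Pgk2 by 0.35), and their median difference was 0.03. Of 5 markers of peritubular myoid cells and smooth muscle 2 rose, Acta2 by 0.95 and Mylk by 0.72. Endothelium had 1 of 6 higher, spermatogonia 1 of 6 lower, and Leydig cells and macrophages 0 of 6 and 0 of 7 past the threshold in limma. In the 12-month arrays the elongating spermatid mean was 12.45 to 12.77. In RNA from whole testes, fewer cells of a type and less RNA per cell cannot be told apart. The part of cell composition in the ADAM differences was not tested.

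Over the 46 arrays the ADAM probes whose values were most like those of Adam3 were Adam24 (Pearson r = 0.77), Adam4 with probe ILMN_2971964 (r = 0.70) and Adam9 (r = 0.61). Over the 45 arrays left when the outlying one is dropped, they were Adam24 (r = 0.72), Adam30 (r = 0.62) and Adam9 (r = 0.61). The arrays share sets, doses and times, and these values are a description. For the dim Adam2 probe no value passed 0.22, with Adam11 (0.22), Adam15 (0.22) and Adam29 with probe ILMN_1253199 (0.16) first. Probes of 1 gene often did not follow each other over 45 arrays: the r between the 3 probes of Adam1b was 0.27, 0.31 and 0.53, that between the 3 of Adam4 0.28, 0.29 and 0.65, that between the 2 of Adam20 0.41, and that between the 2 Adam22 probes tested -0.17.

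Adam6a, a testis gene whose product joins ADAM2 and ADAM3 in mouse sperm, showed gaps between single testes and passed in none of its 25 comparisons in limma. Its probe was at 7.80 in replicate 2 of 0.01 µg/ml at 6 months, 7.97 in replicate 2 of 10 µg/ml at 1 month, 8.17 in the array that stands apart and 8.40 in replicate 1 of 0.01 µg/ml at 12 months. The next lowest array was at 9.17 and the highest at 10.73. The group mates of these arrays were at 9.86 and 10.24, at 9.95 and 10.73, at 10.56 and 9.84, and at 9.34. The low arrays thus came from 4 groups at all 3 times.

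Adam7, a gene of the epididymis, was at the floor on 44 of 46 arrays, with a highest value of 7.78 among them. It was at 8.40 in replicate 2 of 0.1 µg/ml at 1 month and at 8.35 in replicate 1 of the controls at 6 months. The same 2 arrays had the highest values of Spink8, a gene of the epididymis list, at 10.54 and 10.70, against at most 8.75 elsewhere. The named probes most like Adam7 over the 46 arrays, chosen after their values were seen, were Defb22 (8.71 and 8.51 on these arrays, at most 7.80 elsewhere), Defb28 (8.88 and 8.67, at most 7.86), Defb38 (8.64 and 8.85, at most 7.78) and Cuzd1 (9.93 and 9.94, at most 8.49). Defensins of this kind are known from the mouse epididymis. The likeness rests on the 2 arrays: r was 0.96, 0.95, 0.95 and 0.93 over all 46 arrays, and 0.21, -0.03, 0.01 and -0.15 over the other 44. Lcn5, Lcn9, Gpx5 and Rnase9, further markers of the epididymis, were at most 7.82 on all 46 arrays. Lcn8, Spag11b, Ovch2 and Defb42 were at most 7.90, each with its highest value on another array. Cst11 was highest, at 8.82, on the array that stands apart. Of the listed epididymis genes with a probe, only Spink8 thus stood apart on the same 2 arrays as Adam7. The 4 Adam28 probes did not follow Adam7, with at most 7.83 on any array.

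**Figure D4:**
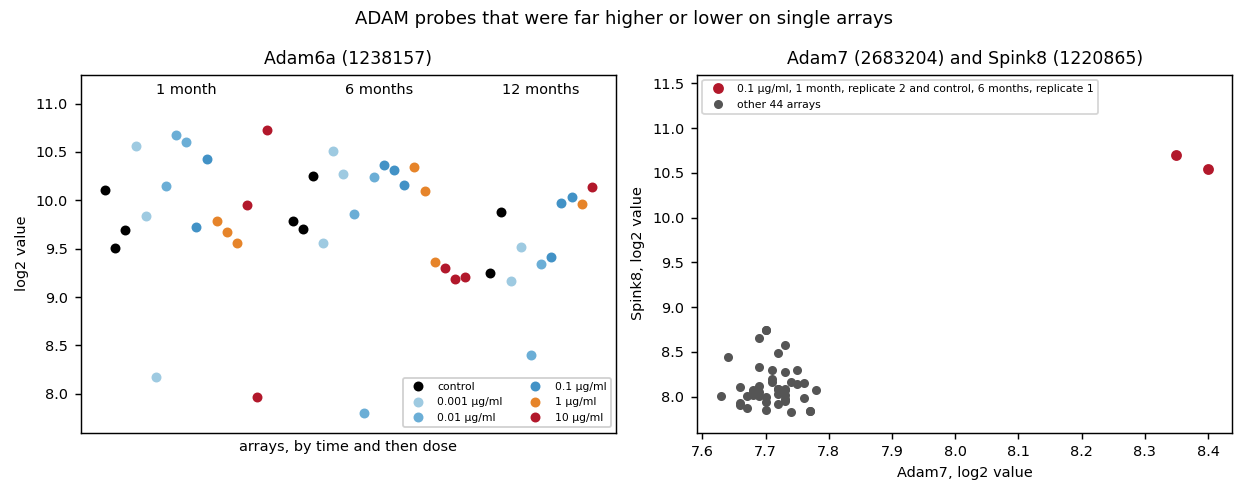
Left, log2 values of Adam6a on the 46 arrays, ordered by time and then dose and coloured by dose, with 4 arrays at 7.80 to 8.40 below the rest. Right, log2 values of Adam7 (x axis) and Spink8 (y axis) on the same arrays, with the 2 arrays at 8.35 and 8.40 of Adam7 set apart from the other 44.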

How the data were processed

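RNA of each testis was read on an Illumina bead array for mouse genes. The authors deposited processed log2 values and non-normalized bead intensities. Per the submitters' processing notes lumi produced the log2 values; no version of it is named. Per unit of log2 intensity they change by 0.586 for dim probes (log2 intensity 7 to 8) and by 0.991 for bright ones (11 to 12), so differences of dim probes are understated. Of the deposited intensity columns used, 12 follow the probe order and 33 do not, so intensities served only as an alternative, after their order was restored from their ranks. 1 column could not be tied to a sample and was not used.

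Groups came from the titles. The dimmest 40% of probes by mean were left out, and the other 15419 were fitted with limma (version 3.58.1, R version 4.3.3) with 18 group means and Benjamini-Hochberg adjustment, two-sided, at 0.05. Single-array groups borrow the spread of the rest. Contrasts compared every dose with its control, a slope over dose rank, time differences averaged over doses, and an interaction. The fit was tested on simulated data. Genes were named from the platform annotation, and all 50 ADAM probes matched RefSeq gene IDs. Per-array values are given for the 8 ADAM probes with the smallest p in 4 comparisons and 3 in the others, with list genes up to 4 a list. Members, lists and this rule were chosen with earlier results of these data known. A planned split by the zinc motif was not made, as no protein sequences were used here.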

Additional observations from a re-analysis of the deposited data

Results flagged for a closer look

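The effect of 10 µg/ml against control differed between 6 months and 1 month for 5 of 29 ADAM probes, against 6.38% of all probes, by the interaction term of the limma fit (6 months minus 1 month, 3 arrays in each of the 4 groups). Without the array that stands apart 9 passed, against 18.4%, and with set as a random block as well 4, against 5.91%. Adam24 gave -1.22 on the log2 scale, Adam26a -0.78, Adam39 -0.76, Adam29 with probe ILMN_2985913 -0.48 and Adam9 -0.36. The Adam9 call was lost in 30 of 46 fits that left out 1 array. In Adam24, Adam26a, Adam29 and Adam9 the mean difference was negative at 6 months and positive at 1 month, and in Adam39 it was -0.67 at 6 months and 0.09 at 1 month. The arrays at 10 µg/ml lay in set 5 at 6 months and in sets 2 and 3 at 1 month, and the part of the sets in these differences was not tested.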

How the results depend on the processing

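Counts are of the 29 ADAM probes past the threshold. Leaving out 1 array at a time gave 1 to 12 for 10 µg/ml at 6 months, 6 to 13 for the slope at 6 months, 2 to 11 for the slope at 1 month, 0 to 1 for 10 µg/ml at 1 month, 0 for 10 µg/ml and the slope at 12 months, 0 to 15 for the lower doses, 2 to 10 for 6 months minus 1 month, 8 to 13 for 12 months minus 1 month, 2 to 6 for 12 months minus 6 months and 2 to 9 for the interaction. The upper ends for 10 µg/ml and the slope at 6 months, the time differences and the interaction came without the array that stands apart. In that fit 32.9% of all probes passed for 10 µg/ml at 6 months and 41.1% for the slope at 6 months. The time differences had 32.0%, 55.2% and 24.2% in the order given, and the interaction 18.4%. No share is given here for the other counts, which say nothing of ADAM probes in particular. Array quality weights gave more calls: 5 for 10 µg/ml at 1 month, 14 at 6 months, 11 for the slope at 1 month, 24 for the lower doses, 10, 14 and 7 for the 3 time differences (6 minus 1, 12 minus 1 and 12 minus 6 months) and 9 for the interaction. Over all probes, weights moved 2679 calls to 5715 for 10 µg/ml at 6 months, 11 to 1171 at 1 month, 3 to 333 at 12 months, 4087 to 6821 and 861 to 2637 for the slopes at 6 months and 1 month, 2 to 201 at 12 months, 1037 to 11998 for the lower doses, 2665 to 6531 and 1464 to 4000 for 6 minus 1 and 12 minus 6 months and 983 to 4120 for the interaction. Restored intensities gave 2 for the slope at 1 month (373 of all probes). Cyclic loess gave 1 for the lower doses and 6 for 6 months minus 1 month, and no filter on dim probes gave 1 for the lower doses. Set as a fixed term gave 0 for the slope at 1 month, where Adam32 turned to -0.04, and 0 for the lower doses, and it left 0 for 10 µg/ml and the slope at 12 months and for 10 µg/ml at 1 month. It could not be fitted for 10 µg/ml and the slope at 6 months, the interaction and the time differences, in which set and group cannot be told apart. Set as a random block over all arrays had a consensus correlation of -0.002, so that fit is close to the one without it and says nothing about the sets. Without the array that stands apart, an alternative chosen after seeing the data, set as a random block (consensus correlation 0.172) gave 0 for the slope at 1 month and 1 for 6 months minus 1 month, and set as a fixed term gave 0 for that slope. Control arrays alone gave 0, 5 and 5 for the 3 time differences, and Adam11 (-0.03), Adam29 with probe ILMN_2985913 (0.04) and Adam22 (-0.06) turned direction between 6 months and 1 month. Replicates with the same number at 10 µg/ml and in controls, the groups checked, did not deviate together at 1 or 6 months, with correlations of -0.14 to 0.05, and numbers were not taken to pair samples. With a replicate block 5 passed for 10 µg/ml at 6 months, 4 for 12 months minus 6 months and 2 for the lower doses. Compressed dim values and few arrays limit what the dim probes can show.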
